A study of Rattus norvegicus with 4 samples.

Results

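Interferon response and antigen presentation genes were examined in RT4D6 cells, a rat Schwannoma line derived from the glia of peripheral nerve, after siRNA against the transcription factor Sox10. The genes were chosen by name for their place in the interferon pathway. The list holds 43 genes, of which 41 have at least 1 probe set annotated with that symbol alone, among 14217 genes so represented on the array. Xaf1 and Trim21 have none, so their expression was not analysed here. Where a gene has several such probe sets, the probe set brightest on average (mean log2 signal over the arrays) stood for it.

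The study compared 2 arrays of cells given wild type (specific) Sox10 siRNA with 2 arrays of cells given mutant (control) siRNA, all at 48 h, on Affymetrix rat expression arrays. Both groups thus carry an siRNA, all cells are of a single tumour line, and cells without siRNA were not part of the comparison, so that any response common to both siRNAs cannot be seen here. The samples are described as 2 independent pairs, and p-values measure the spread between these samples. Values are MAS5 signals, which estimate the abundance of a transcript from its probe set on a linear scale, and each log2 fold change below is that of specific over mutant siRNA, once every array was centred on its median. Values after ± are standard errors (SE) from 2 arrays a group. Tests used limma across all probe sets bright enough to test, with Benjamini-Hochberg adjustment.

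Type I interferons signal through the receptor of Ifnar1 and Ifnar2 and the kinases Jak1 and Tyk2, and interferon gamma through Ifngr1 and Ifngr2 with Jak1 and Jak2. The first route brings Stat2 and Irf9 into a complex that binds the interferon-stimulated response element (ISRE) in the promoters of antiviral genes. The second uses the gamma-activated site (GAS) and induces Irf1, which itself binds ISRE-like sequences. Class I antigen presentation, which displays peptides carried by Tap1 and Tap2 on molecules paired with B2m, is raised by both. Usp18 and Socs1 damp the signal. Schwann cells are known to respond to interferon gamma by raising their surface presentation molecules.

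The element that the type I complex binds has a short core sequence, which many of these promoters hold. RefSeq promoters of build GRCr8, from 250 bases before to 50 bases after the annotated start, were found for 34 of the 43 genes. For each of the 34 the first listed promoter was read, while the shares over all promoters count every listed promoter. The ISRE core, written GAAANNGAAA or TTTCNNTTTC on the other strand, was in 20 of the 34 (58.8%) and in 1312 of all 33469 rat promoters of that length (3.92%). The GAS core TTCNNNGAA, which reads the same on both strands, was in 7 of the 34 (20.6%) and in 8.87% of all promoters. In Bst2 the GAS and ISRE matches overlap. The stretches below are those of the genes that passed the test described next and hold a match, read along the gene 5′ to 3′, with the matches in capitals.

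Ifi44, chr2:243303791-243303886, minus strand, higher with the specific siRNA: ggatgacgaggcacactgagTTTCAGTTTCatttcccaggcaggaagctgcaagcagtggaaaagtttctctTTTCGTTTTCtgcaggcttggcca
Dtx3l, chr11:78320215-78320264, plus strand, higher: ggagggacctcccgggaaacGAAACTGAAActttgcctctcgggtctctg
B2m, chr3:129549160-129549209, plus strand, higher: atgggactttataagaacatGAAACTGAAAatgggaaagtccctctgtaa
Gbp2, chr2:234005676-234005725, plus strand, lower: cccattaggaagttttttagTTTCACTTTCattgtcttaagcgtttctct
Bst2, chr16:18255063-18255124, minus strand, lower: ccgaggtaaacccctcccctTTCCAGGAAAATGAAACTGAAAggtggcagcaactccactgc
Irf1, chr10:38417773-38417821, plus strand, lower: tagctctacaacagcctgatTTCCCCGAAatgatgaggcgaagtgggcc

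The 3 upper stretches belong to genes that rose and the 3 lower ones to genes that fell, and an ISRE core stands in both sets. By outcome, it was in 3 of 4 promoters of genes higher with the specific siRNA, 2 of 3 of genes lower, 8 of 18 of genes that did not pass the test 5 of 7 of genes too dim to test and 2 of 2 (Xaf1 and Trim21) of genes without a probe set. The promoter of Stat2 holds neither core in this window, and those of Usp18 and Ifit2 were not analysed here. These matches describe letters and not binding.

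**Figure D1:**
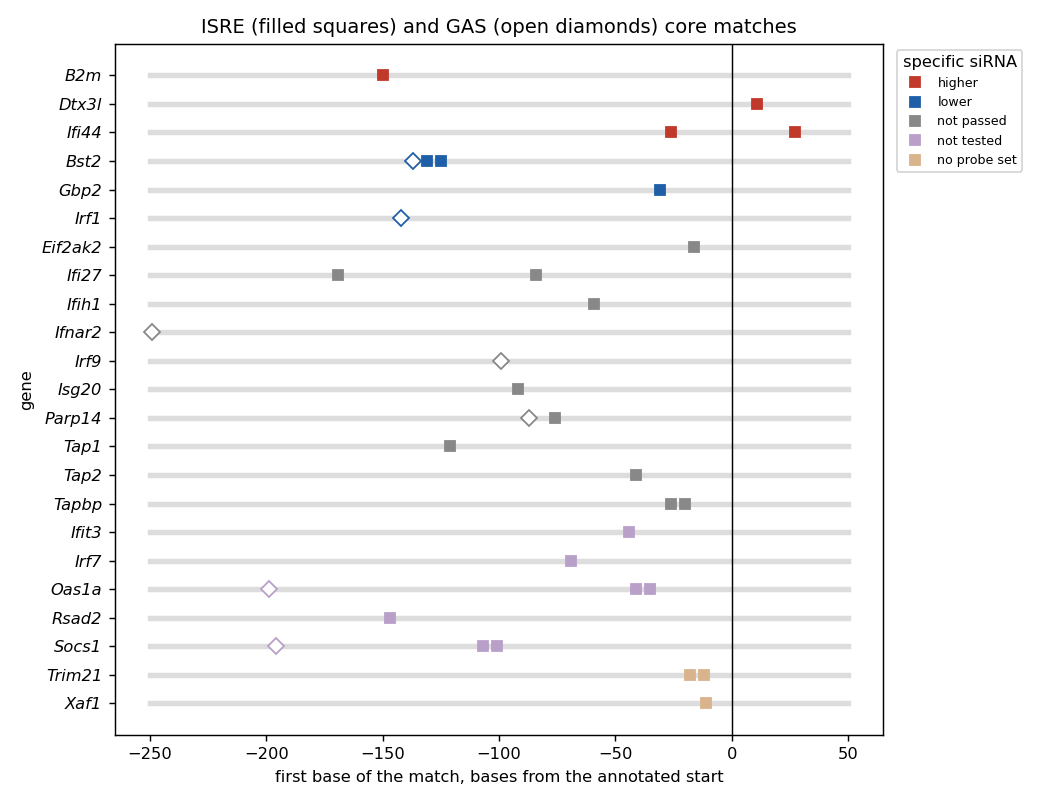
Positions of ISRE core matches (filled squares) and GAS core matches (open diamonds) in the promoters of the 23 interferon response genes that hold at least 1, as the distance of the first base from the annotated start (horizontal axis, bases), with the grey bar marking the window searched. Colours give the outcome of the siRNA comparison, and filled squares stand beside genes of every outcome.

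The interferon genes moved in both directions when Sox10 was lowered. Of the 41 genes, 30 were bright enough to test, and 5 of them were lower and 4 higher under specific siRNA (limma, adjusted p under 0.05), while 21 did not pass. Stat2 and Ifi44 showed the largest rises, and Bst2 and Usp18 the largest falls. The background is similar: of 9163 genes tested with 1 probe set each, 10.6% were lower and 17.4% higher, against 16.7% and 13.3% of the 30, and of 16125 probe sets tested, 12.1% were lower and 14.6% higher. The median log2 fold change of the 30 interferon genes was 0.09, beside 0.19 over all genes tested, and changes are to be read relative to that shift. Shares so near the background are not a result about the group, and what follows describes its single genes. In these bulk samples, fewer cells of a type and less RNA per cell cannot be told apart. Bst2 passed the filter on low signals solely through its mutant siRNA arrays, so that it had to differ. With the replicate number as a block, which treats same-numbered arrays as pairs, 5 were lower and 7 higher, and the added genes were Jak1, Isg20 and Ifi27. Without mutant siRNA replicate 1 the counts were 1 and 4, without mutant siRNA replicate 2 they were 1 and 2, and without wild type siRNA replicate 1 they were 4 and 2. In these fits the lone array is assumed to vary like the other group.

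**Figure D2:**
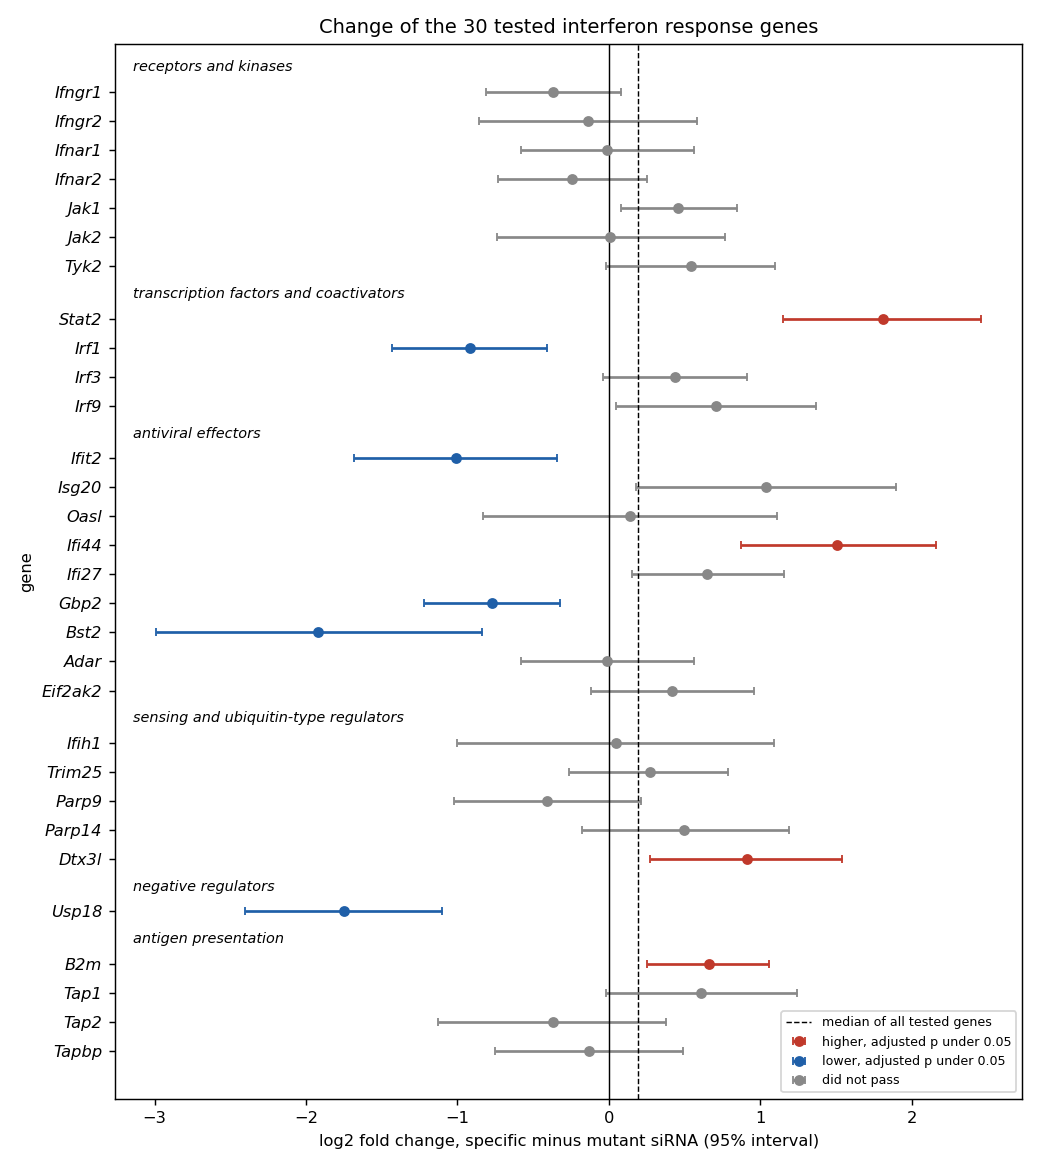
Log2 fold change of specific over mutant siRNA with its 95% interval from limma (horizontal axis) for the 30 tested interferon response genes (vertical axis), grouped by role. Red marks the 4 genes higher and blue the 5 lower at an adjusted p under 0.05, grey the 21 that did not pass, and the dashed line the median of all tested genes, 0.19; the red and blue points lie on both sides of it within the antiviral effectors and the transcription factors.

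The receptors and their kinases were measured in all 7 cases, and none passed the test, beside 10.6% lower and 17.4% higher of all genes tested. With 7 genes, that count is not a result about the receptors and kinases. With 1 probe set each, their log2 fold changes lay between -0.37 and 0.54. For 6 of the 7, the 95% interval of the change stayed within 2-fold in either direction. Ifnar1, the signalling chain of the type I receptor, had readings of 321 and 344 under specific siRNA and of 323 and 386 under mutant siRNA, a log2 fold change of -0.01 (95% interval -0.58 to 0.56). The groups overlapped. Ifnar2, its binding chain, was at -0.24 (95% interval -0.73 to 0.25). For Ifngr1, which binds interferon gamma, the specific siRNA arrays read 1857 and 1415 and the mutant siRNA arrays 2121 and 2296, so the groups were apart, by a log2 fold change of -0.37 (adjusted p = 0.188). Ifngr2 was at -0.14 and Jak2 at 0.01, and both changed sign with an array left out. The dimmer probe set of Ifngr2 had 191 and 196 against 184 and 90.3, on the other side of 0 at 0.67 (adjusted p = 0.280). Jak1, the kinase common to both routes, had readings of 4163 and 3623 under specific siRNA and of 3112 and 2842 under mutant siRNA. Both specific siRNA arrays were higher, at a log2 fold change of 0.46 ± 0.17 (SE, adjusted p = 0.0739). With the replicate block Jak1 passed at the same size (adjusted p = 0.0299), and its dimmer probe set passed without it, at 0.65 (adjusted p = 0.0419). Tyk2, the kinase of the type I receptor, was at 0.54 ± 0.25 (SE, adjusted p = 0.133).

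Among the transcription factors, Stat2 rose and Irf1 fell. Stat2, the partner of Irf9 in the type I complex, had readings of 1007 and 687 under specific siRNA and of 300 and 210 under mutant siRNA. The lower specific siRNA array was still above the higher mutant siRNA array by more than the distance between the 2 mutant siRNA arrays. Its log2 fold change was 1.81 ± 0.29 (SE, adjusted p = 0.00466), a 3.50-fold rise. Between same-numbered arrays it was 1.78 (replicate 1) and 1.83 (replicate 2), though no number is stated to mark a pair. Its dimmer probe set, with signals of 213 and 178 against 148 and 172, was at 0.37 and did not pass (adjusted p = 0.437), so the size of the change depends on the probe set.

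Irf1, the factor that interferon gamma induces first, had readings of 467 and 369 under specific siRNA and of 854 and 810 under mutant siRNA. Both specific siRNA arrays were about equally far below, at a log2 fold change of -0.92 ± 0.22 (SE, adjusted p = 0.0195). That call did not hold without mutant siRNA replicate 1 (adjusted p = 0.103) or without mutant siRNA replicate 2 (adjusted p = 0.0769). Irf9, the DNA-binding part of the type I complex, was at 0.71 ± 0.29 (SE, adjusted p = 0.0996), with signals of 376 and 271 against 195 and 218. Irf3, which responds to viral nucleic acid, was at 0.44 (adjusted p = 0.147). The signals of Irf7, the factor that amplifies the type I response, were 68.6 and 159 under specific siRNA and 107 and 69.7 under mutant siRNA. They crossed between the groups, and the gene was not tested. Nlrc5 and Ciita, the coactivators of class I and class II presentation genes, stayed below the array median on all 4 arrays, with signals up to 62.4 and 49.4.

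Of 9 tested antiviral effectors, 3 were lower and 1 higher, beside 10.6% and 17.4% of all genes tested. Bst2, counted among the 3, passed the filter on low signals solely through its mutant siRNA arrays. Ifi44, an interferon-induced cytosolic protein, had readings of 500 and 369 under specific siRNA and of 152 and 167 under mutant siRNA. All of the specific siRNA values were more than double the mutant siRNA values, at a log2 fold change of 1.51 ± 0.28 (SE, adjusted p = 0.00817), a 2.85-fold rise. Ifit2, which binds RNA and limits its translation, went the other way, with 178 and 140 against 331 and 340. Its log2 fold change was -1.01 ± 0.29 (SE, adjusted p = 0.0352), which did not hold without mutant siRNA replicate 1 (adjusted p = 0.142), mutant siRNA replicate 2 (adjusted p = 0.149) or wild type siRNA replicate 2 (adjusted p = 0.0797). The other probe set of Ifit2 was at -0.20 (adjusted p = 0.697) with overlapping groups.

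Gbp2, a guanylate-binding GTPase induced strongly by interferon gamma, had readings of 1850 and 2263 under specific siRNA and of 3308 and 4091 under mutant siRNA. Its groups were apart, at a log2 fold change of -0.77 ± 0.20 (SE, adjusted p = 0.0242). The call did not hold without mutant siRNA replicate 1 (adjusted p = 0.0601), mutant siRNA replicate 2 (adjusted p = 0.144) or wild type siRNA replicate 1 (adjusted p = 0.0935). Bst2, tetherin, which holds budding virus at the cell surface, had readings of 47.2 and 63.8 under specific siRNA and of 235 and 204 under mutant siRNA. The specific siRNA values lay below the array median and the mutant siRNA values above it, and the log2 fold change was -1.92 ± 0.47 (SE, adjusted p = 0.0208). It was not called without mutant siRNA replicate 1 (adjusted p = 0.144) or mutant siRNA replicate 2 (adjusted p = 0.101).

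Isg20, an exonuclease, and Ifi27, a mitochondrial interferon-induced protein, were higher on both specific siRNA arrays without passing. Isg20 had 443 and 228 against 188 and 142, a log2 fold change of 1.04 (adjusted p = 0.0714). It passed with the replicate block (adjusted p = 0.0194) and among probe sets at or above the median on all 4 arrays (adjusted p = 0.0495). Without wild type siRNA replicate 2 the Isg20 change was 1.49. Ifi27 had 3769 and 3216 against 2812 and 1940, a change of 0.65 (adjusted p = 0.0580). It passed with the block (adjusted p = 0.00825) and among probe sets at or above the median on all 4 arrays (adjusted p = 0.0448). Without mutant siRNA replicate 1 the Ifi27 change was 0.94. Eif2ak2, the kinase that stops translation on double-stranded RNA, was at 0.42 (95% interval -0.12 to 0.96). Oasl, of the oligoadenylate synthetase family, was at 0.14 ± 0.42 (SE). Adar, which edits double-stranded RNA, was at -0.01 (95% interval -0.58 to 0.56), with its other probe sets at 0.20 and -0.38.

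**Figure D3:**
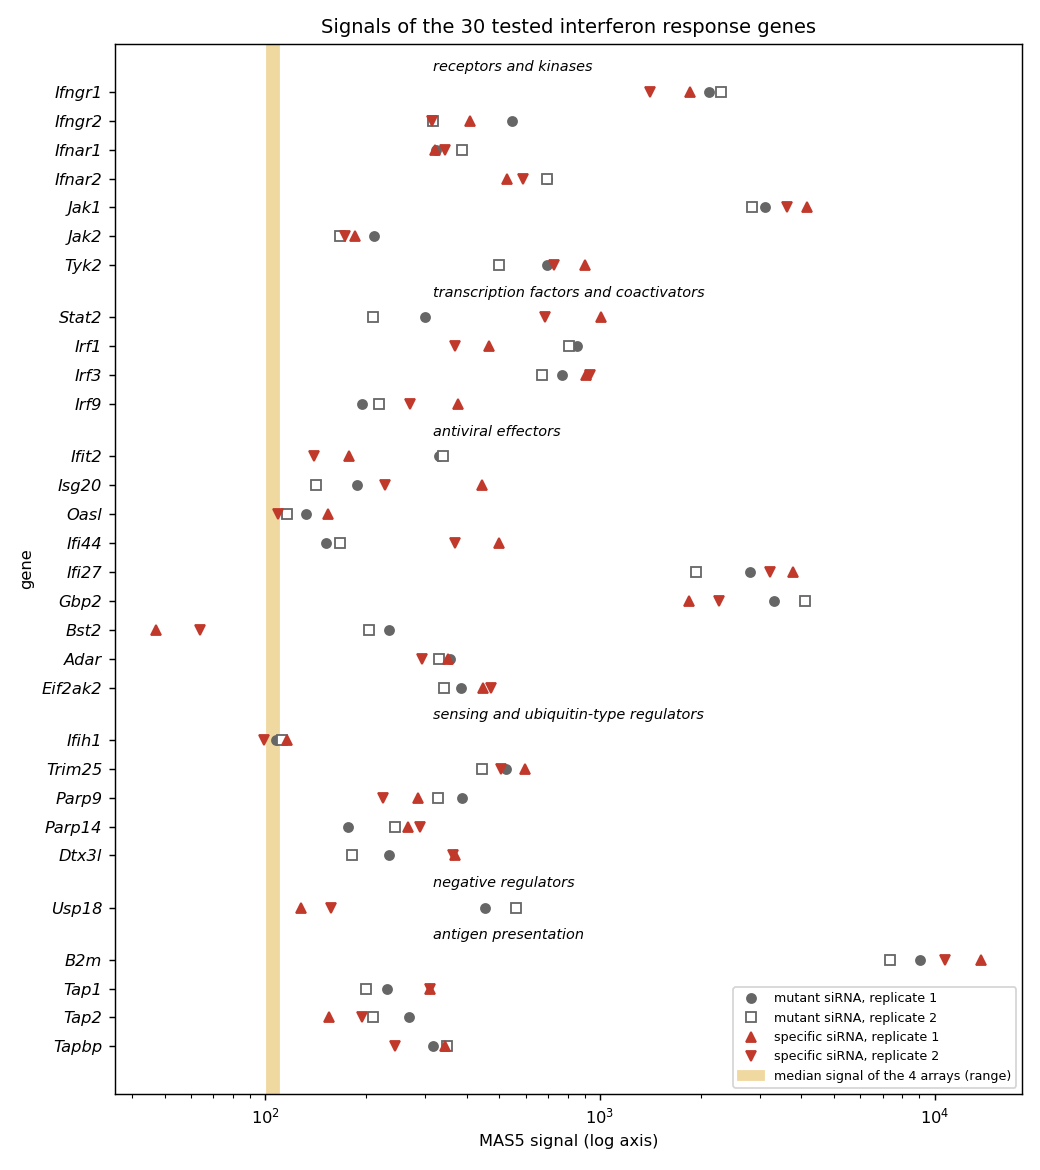
MAS5 signal on each of the 4 arrays (horizontal axis, log scale) for the 30 tested interferon response genes (vertical axis), grouped by role; grey marks the mutant and red the specific siRNA arrays, and the shaded band spans the array medians. Stat2 and Ifi44 have both red points to the right of both grey points, and Bst2, whose red points lie at 47.2 and 63.8, and Usp18 have them to the left.

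Many textbook interferon-stimulated genes were below the array median in both groups. Of the 41 genes, 30 were tested and 11 were not. Of all 14217 genes with such a probe set, 9163 were tested, so the count is not a result about the group. Of the 11, 10 were below the array median on all 4 arrays, with signals between 2.70 and 94.6. The median signals of the arrays were between 101 and 110 and the 25th percentiles between 26.2 and 31.0. Isg15, the ubiquitin-like modifier, had readings of 66.6 and 7.50 under specific siRNA and of 62.0 and 17.4 under mutant siRNA. Mx1, an antiviral GTPase, had 6.10 and 53.9 against 48.8 and 57.3. Neither gene separated the groups. Rsad2, viperin, had 65.6 and 2.70 against 48.1 and 27.1, and Oas1a, a sensor that makes oligoadenylate, 10.0 and 65.3 against 26.9 and 11.8. Here the specific siRNA replicates lay farther apart than the group means. Ifit3 stayed between 38.8 and 50.5 and Mx2 between 40.4 and 43.8. These genes were left out by the filter on low signals, so no difference was tested, and the values do not show that the transcripts are absent.

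**Figure D4:**
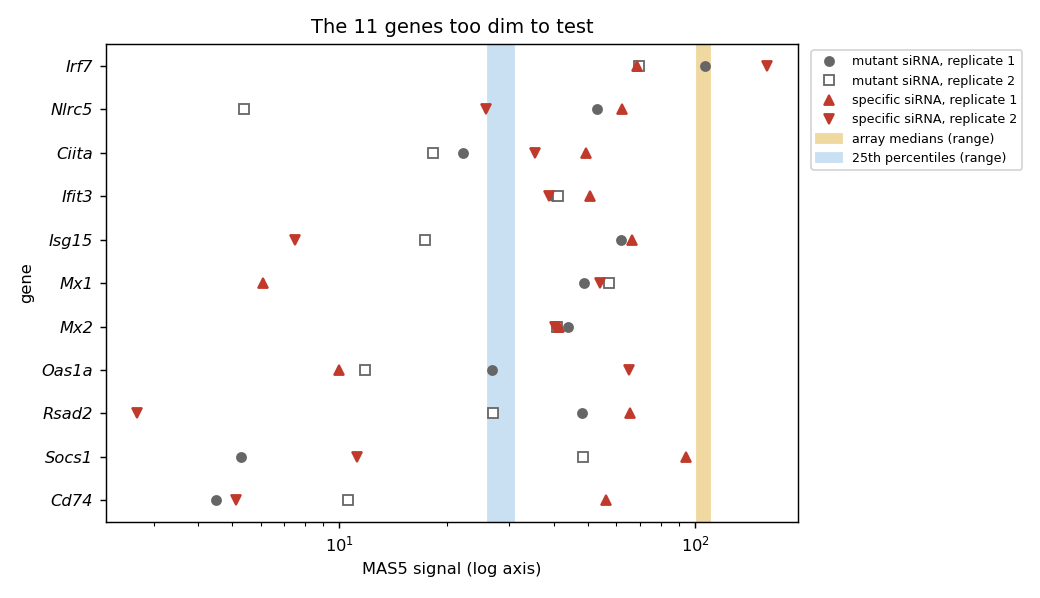
MAS5 signal on each array (horizontal axis, log scale) for the 11 interferon response genes not tested (vertical axis), with bands for the range of the array medians and of the 25th percentiles. Irf7 is above the array median on 1 array (159) and the other 10 genes on none, and 8 of the 11 have at least 1 array below its 25th percentile.

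Of 5 tested sensors and ubiquitin-type regulators, 1 was higher and 0 lower, beside 17.4% and 10.6% of all genes tested. Dtx3l, a ubiquitin ligase, had readings of 370 and 364 under specific siRNA and of 234 and 182 under mutant siRNA. The groups were apart, at a log2 fold change of 0.91 ± 0.28 (SE, adjusted p = 0.0426). This is the weakest of the 9 calls, and it was lost with any array left out (adjusted p = 0.0754 and 0.198 without mutant siRNA replicates 1 and 2, 0.102 and 0.0910 without wild type siRNA replicates 1 and 2) and with the signals as deposited (adjusted p = 0.0546). Its binding partner Parp9 had signals of 286 and 225 against 386 and 328 and was at -0.41 ± 0.27 (SE, adjusted p = 0.286), so that the genes of the pair differed in sign, a difference that was not tested. Parp14, a related ADP-ribosyltransferase, was at 0.50 (adjusted p = 0.235). Trim25, the ligase that activates RNA sensing, was at 0.27 (adjusted p = 0.412), and Ifih1, the RNA sensor MDA5, at 0.05 ± 0.46 (SE) with all signals near the array median.

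Of the negative regulators, Usp18, which removes Isg15 from proteins and blocks the type I receptor, was lower with the specific siRNA. It had signals of 128 and 157 there and 452 and 561 with the mutant siRNA. No value of a group came near the other group, and the log2 fold change was -1.75 ± 0.28 (SE, adjusted p = 0.00512), a 3.37-fold fall. Between same-numbered arrays, which are not stated to be pairs, it was -1.79 (replicate 1) and -1.72 (replicate 2). With an array left out, its highest adjusted p came without mutant siRNA replicate 2, at -1.61 (adjusted p = 0.0451). Socs1, the inhibitor of the Jak kinases, had 94.6 and 11.2 against 5.30 and 48.5, without order between the groups, and was not tested.

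In antigen presentation, B2m, the light chain of all class I molecules, was higher in its bright probe set. Its signals were 13781 and 10725 under specific siRNA and 9058 and 7342 under mutant siRNA. The groups were apart, at a log2 fold change of 0.66 ± 0.18 (SE, adjusted p = 0.0285), a 1.57-fold rise. The call did not hold without mutant siRNA replicate 2 (adjusted p = 0.158) or wild type siRNA replicate 1 (adjusted p = 0.137), nor with quantile normalization (0.50, adjusted p = 0.0508). The other B2m probe set had 557 and 553 against 853 and 642 and was at -0.34 (adjusted p = 0.308), on the other side of 0. Tap1, a chain of the peptide transporter, had 311 and 310 against 231 and 200, a log2 fold change of 0.61 ± 0.27 (SE, adjusted p = 0.128). Tap2, its partner chain, was at -0.37 (adjusted p = 0.426), and Tapbp, tapasin, which links the transporter to class I molecules, at -0.13 (95% interval -0.75 to 0.49). Cd74, the invariant chain of class II, had signals of 56.2 and 5.10 against 4.50 and 10.6 and was not tested.

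**Figure D5:**
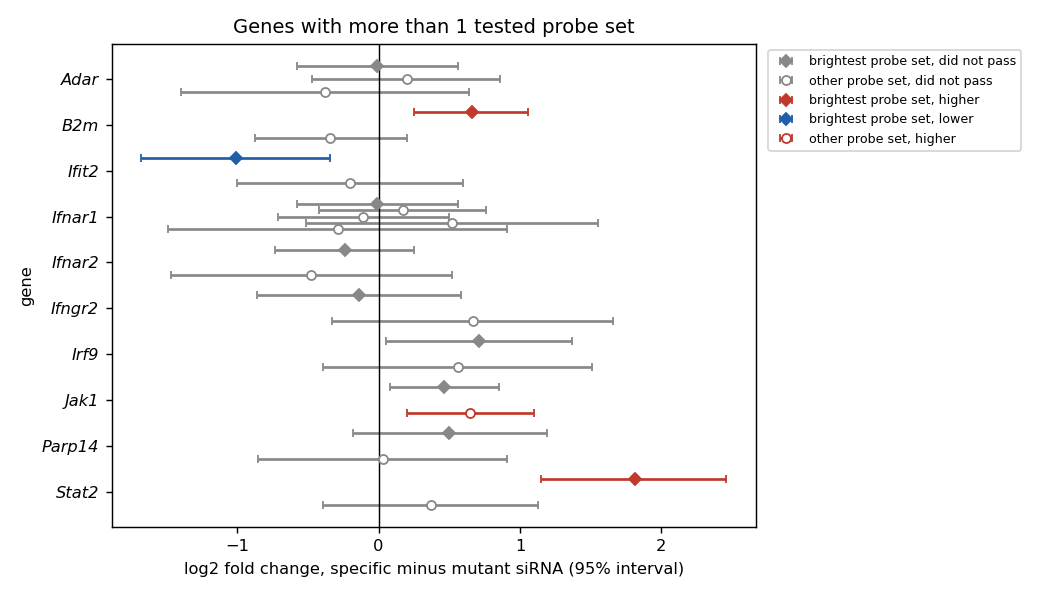
Log2 fold change with its 95% interval (horizontal axis) of every tested probe set of the 10 interferon response genes that have more than 1 (vertical axis); filled diamonds are the probe sets used for the gene and open circles the others. For Stat2 the values are 1.81 and 0.37, for B2m 0.66 and -0.34, and for Ifit2 -1.01 and -0.20.

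Over all 60 probe sets of the 41 genes, 44 were tested, of which 5 were lower and 5 higher. Among all 16125 tested probe sets, 12.1% were lower and 14.6% higher. Of the 10 genes with more than 1 tested probe set, none passed in more than 1, and Stat2, B2m, Ifit2 and Jak1 each passed in a single probe set.

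The rest of the pathway was taken from lists set by role. Of 112 further genes listed, 87 have a probe set of their own and 48 were tested, with 4 lower and 6 higher (8.3% and 12.5%), against 10.6% and 17.4% of all genes tested, so these counts are not a result about the pathway either. Of 11 tested genes of class I peptide processing and assembly, 3 were higher and 1 lower. RT1-M3-1, a non-classical class I gene, had readings of 1423 and 1254 under specific siRNA and of 645 and 480 under mutant siRNA, a log2 fold change of 1.34 ± 0.23 (SE, adjusted p = 0.00599). Its groups were well apart. Class I genes of the RT1 region are near copies, and cross-hybridisation to them was not tested. Canx, the chaperone calnexin, was at 0.79 (adjusted p = 0.0188), which did not hold without mutant siRNA replicate 1 (adjusted p = 0.110). Erap1, which trims peptides, was at 0.77 (adjusted p = 0.0229), not called without mutant siRNA replicate 1 (adjusted p = 0.112), mutant siRNA replicate 2 (adjusted p = 0.0691) or wild type siRNA replicate 2 (adjusted p = 0.0797). Psmb9, an immunoproteasome subunit whose gene is a neighbour of Tap1, fell, with signals of 206 and 173 against 434 and 442. Its log2 fold change was -1.14 ± 0.26 (SE, adjusted p = 0.0160), not called without mutant siRNA replicate 1 (adjusted p = 0.0844) or 2 (adjusted p = 0.0861), while its fellow subunits Psmb8 and Psmb10 were at 0.04 and -0.35 and did not pass.

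Of 20 tested genes among other interferon-stimulated genes, 2 were higher and 2 lower, beside 17.4% and 10.6% of all genes tested. Icam1, an adhesion molecule that inflammatory cytokines raise, had 682 and 773 under specific siRNA and 189 and 236 under mutant siRNA. Its groups were far apart, at a log2 fold change of 1.86 ± 0.25 (SE, adjusted p = 0.00278). Slfn2, a schlafen gene, was at -1.48 (adjusted p = 0.0140), not called without mutant siRNA replicate 1 (adjusted p = 0.0592) or 2 (adjusted p = 0.0706). Trim34, a tripartite-motif gene, was at 1.15 (adjusted p = 0.0329), not called without mutant siRNA replicate 1 (adjusted p = 0.0889), mutant siRNA replicate 2 (adjusted p = 0.118) or wild type siRNA replicate 1 (adjusted p = 0.141). Pml, which organises nuclear bodies, was at -0.86 (adjusted p = 0.0406), not called with any array left out (adjusted p between 0.0542 and 0.228). Among 4 tested sensors and adaptors, Myd88, the adaptor of Toll-like receptors, was higher at 1.07 (adjusted p = 0.0145), not called without mutant siRNA replicate 1 (adjusted p = 0.0838). Of the list of interferons and regulators, 11 genes were tested, none of them an interferon. Nmi, an interferon-induced adaptor, was lower at -1.12 (adjusted p = 0.0327 from limma). It was not called without mutant siRNA replicate 1 (-0.94), mutant siRNA replicate 2 (-1.30) or wild type siRNA replicate 2 (-0.93). Of 11 measured class II genes, 2 were tested, Ifi30 and RT1-DMa, and neither passed. Ifnb1 and Ifng, the interferons themselves, had signals of at most 40.5 and 22.0 on any array and were not tested.

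Sox10 had readings of 163 and 335 under specific siRNA and of 2873 and 2890 under mutant siRNA, so the targeted gene followed the labels. All 8 measured genes of a Schwann cell and glial marker list, Sox10 itself among them, were lower, of which Erbb3 passed the filter on low signals solely through the mutant siRNA arrays, and 3 of 8 measured smooth muscle genes were higher, with summed signals of 32306 and 44008 against 6352 and 11696. Those sums come mostly from the 3 genes that passed, Tagln, Myl9 and Acta2. Another 4 smooth muscle genes were below the array median on all 4 arrays and not tested. Among these, Des was lower on both specific siRNA arrays (30.6 and 53.3 against 62.8 and 96.6), and the groups of Actg2, Cnn1 and Lmod1 overlapped. The glial and smooth muscle genes that passed move with the same contrast as every interferon gene above, and their part in the results was not tested. Of 11 measured leukocyte and macrophage markers, 10 were below the array median on all 4 arrays, the common leukocyte antigen Ptprc at 27.4 to 64.3, and the other, Cd14, read 778 and 639 against 453 and 695 and made up most of the summed signals of 1284 and 1005 against 743 and 1117. Of 6 fibroblast and 4 endothelial markers 7 were too dim to test and none passed, and the 2 fibroblast genes tested, Col1a1 (1699 and 2868 against 1494 and 1371, adjusted p = 0.0832) and Col3a1 (151 and 467 against 120 and 81.9, adjusted p = 0.0770), were higher on both specific siRNA arrays. The actin probe sets gave a 3' over 5' ratio of 1.87 on mutant siRNA replicate 1 and 1.39 to 1.54 on the other arrays, and its part in the results was not tested.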

How the data were processed

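RNA of RT4D6 cells was measured on 4 one-colour Affymetrix arrays, 2 for each siRNA. The values the authors deposited are MAS5 signal intensities (version not given in the sources used here), scaled so that the mean of every array without its lowest and highest 2% is 500. Detection calls were not used here, and the number of arrays limits the precision. Of 31099 probe sets, 57 controls were left out, and 16125 of the other 31042, which reached the median of their array on 2 or more arrays, entered a limma 3.58.1 fit (R 4.3.3, eBayes with a mean-variance trend) of median-centred log2 signals, with calls at an adjusted p under 0.05 by Benjamini and Hochberg. Platform annotation gives 20826 probe sets a single symbol, 436 several and 9780 none. The genes, lists and tests were chosen with earlier results of these data known. All 4 signals are given for those of the 41 genes that passed or changed at least 2-fold, and up to 4 called genes of each further list are named. Others were added after their values were seen. Same-numbered arrays deviated from the means of their groups with a correlation of 0.14, and no number is stated to mark a pair. Alternatives were other scalings, treatments of low signals, filters, variance models, a replicate block and each array left out. Promoter sequences are RefSeq's, of GRCr8. Further steps ran in Python 3.11.15 (pandas 2.3.3, matplotlib 3.10.9).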

Additional observations from a re-analysis of the deposited data

How the results depend on the processing

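Stat2, Ifi44 and Usp18 kept their direction and an adjusted p under 0.05 in 13 of 14 alternatives each, the exception being the methods' t-test (taken as unpaired, equal variances, log2 values). After adjustment that test called 0 interferon genes lower and 0 higher (4 and 4 at an unadjusted p under 0.05), 0 and 0 of the further pathway genes (3 and 8 unadjusted), and 0 lower and 2 higher over all probe sets (1386 and 2444 unadjusted). Without the intensity trend 3 interferon genes were lower and 2 higher, and over all probe sets 1187 and 1177 against 1956 and 2348. Without a filter on low signals 2 interferon genes were higher, and 2 further pathway genes lower. Among probe sets at or above the median on all 4 arrays, 4 interferon genes were lower and 6 higher. With the replicate block 7 interferon genes were higher, and the block ended no call of an interferon gene. With an array left out, the interferon genes called were 1 to 4 lower and 2 to 4 higher, the further pathway genes 0 to 4 and 2 to 6, and all probe sets 706 to 2519 and 924 to 2128. Leaving out either mutant siRNA array left 0 lower calls by limma among the further genes (2 at an unadjusted p under 0.05 without replicate 1, 5 without replicate 2). Signs turned for genes near 0 that did not pass. With the signals as deposited, not centred, Jak2 was at -0.06 and Ifih1 at -0.03. With an array left out, Ifngr2 ranged from -0.54 to 0.27, Ifnar1 from -0.12 to 0.10, Jak2 from -0.17 to 0.20, Oasl from -0.08 to 0.37, Adar from -0.12 to 0.09, Ifih1 from -0.05 to 0.14 and Tapbp from -0.35 to 0.09. The median change over all tested probe sets, 0.13, became 0.05 for uncentred and 0.08 for quantile-normalized signals. Uncentred signals gave 2280 lower and 1940 higher calls over all probe sets and quantile-normalized ones 2150 and 2043, so the balance of directions rests on the scaling. The cause was not tested in any of these cases. Background correction is part of MAS5 and could not be varied here.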

Other observations

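A few genes of these lists were dim with one siRNA and brighter with the other, in both directions, and are named here after their values were seen. Irf5, an interferon regulatory factor of inflammatory signalling, read 114 and 138 under specific siRNA and 15.7 and 8.80 under mutant siRNA, and did not pass the test (log2 fold change 3.49, standard error 1.14, adjusted p = 0.0538 from limma). It passed the filter on low signals solely through the specific siRNA arrays. Herc6, a ligase of the interferon response, had 77.9 and 58.7 against 1.20 and 1.60, and was below the array median on all 4 arrays and not tested. The dimmer probe set of Mx2 had 33.4 and 40.1 against 8.30 and 6.50, while the probe set used for the gene had 41.4 and 40.4 against 43.8 and 41.0. In these 3 cases the mutant siRNA values lie below the 25th percentile of their arrays, so the sizes of the differences are not established. In the other direction, Ptpn6, a phosphatase that damps Jak signalling, read 71.3 and 40.4 against 144 and 155 (log2 fold change -1.40, adjusted p = 0.0968), and passed the filter solely through the mutant siRNA arrays. Cmpk2, an interferon-induced nucleotide kinase, read 16.8 and 40.2 against 96.7 and 81.7, below the array median on all 4 arrays, and was not tested. The dimmer probe set of Socs1 read 7.10 and 3.40 against 16.2 and 24.5 and was not tested. All 4 of these Socs1 values lie below the 25th percentile of their arrays, so the size of the difference is not established. The probe set used for Socs1 had 94.6 and 11.2 against 5.30 and 48.5, without order between the groups.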
